A study of Mus musculus with 9 samples.

Results

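Vegfa, Vegfb, Vegfc and Pgf, which encode secreted ligands of the vascular endothelial growth factor (VEGF) family, were followed together with the angiopoietins Angpt1 and Angpt2, the angiopoietin-like gene Angptl4 and the neuropilins Nrp1 and Nrp2 in mouse renal tubular epithelial cells. These 9 genes were chosen by name, and all 9 were found among the 31167 genes of the table. The cells were primary cultures from the kidney of C57BL/6 mice, and RNA was sequenced from 3 groups of 3 libraries. Sham cells were the negative control. H/R cells spent 6 h without glucose at 1.0% O2, followed by 18 h of reoxygenation in complete medium, which mimics ischemia and reperfusion. EGR1OV cells had been transfected with an Egr1 overexpression plasmid under a CMV promoter, with EndoFectin Max as the reagent. The labels list no H/R for them. The study's general protocol places such transfections before H/R, while its description of the sequencing lists H/R and the plasmid as separate treatments. Whether EGR1OV cells also went through H/R is therefore not settled here. The time from transfection to harvest of the EGR1OV cells and the age of the mice are not given in the sources used here. No group with an empty plasmid was analysed here, so the plasmid, the transfection and Egr1 cannot be told apart in EGR1OV. The labels do not say whether the 3 libraries of a group came from separate cultures or animals, so the p-values measure only the spread between these libraries.

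VEGF ligands act mainly on endothelial cells through the receptor tyrosine kinases Flt1 (VEGFR1), Kdr (VEGFR2) and Flt4 (VEGFR3). Vegfa signals through Kdr and binds Flt1 as well, Vegfb and Pgf bind Flt1, and Vegfc binds Flt4. Neuropilins have no kinase domain and serve as co-receptors, Nrp1 mostly for Vegfa and Nrp2 mostly for Vegfc, and both also bind class 3 semaphorins. Angpt1 activates the endothelial receptor Tek (Tie2) and steadies vessels, while Angpt2 acts on the same receptor as a context-dependent antagonist. Angptl4 inhibits lipoprotein lipase and is known as a target of hypoxia-inducible factors (HIF) and of peroxisome proliferator-activated receptors (PPAR). In the kidney, tubular epithelium is a source of Vegfa for the peritubular capillaries.

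The labels were checked first. Egr1 was at 6.40 ± 0.443 FPKM (Sham), 7.88 ± 0.599 (H/R) and 42.6 ± 2.84 (EGR1OV), each with its SD over 3 libraries, where FPKM counts fragments per kilobase of exon at a common library depth. Recovered depth ran from 16183617 to 18384022 reads per library. Kidney epithelial genes were expressed, with Pax8 at 13.1 FPKM, Cdh16 at 24.3, Epcam at 76.2 and Krt8 at 1014 in Sham, and segment markers were lower. The proximal tubule genes Lrp2 and Aqp1 averaged 3.60 and 1.3 FPKM in Sham and fell in EGR1OV (-1.05 and -0.75, adjusted p = 1.01e-07 and 7.45e-05), while Cubn, Slc34a1, Slc12a1, Umod and Slc12a3 averaged under 0.5 FPKM over all libraries and Umod was listed at 0 in all of them. The 14 tubule markers found, led by Krt8 and Krt18, summed to 1843 to 1880 FPKM (Sham), 1694 to 1775 (H/R) and 1170 to 1276 (EGR1OV). Of the 9 tested, 4 fell and 1 (Epcam) rose in EGR1OV, beside 910 and 1381 of all 13985 genes tested. After H/R Epcam rose, beside 224 of all genes tested. In such bulk RNA, fewer cells of a type and less RNA per cell cannot be told apart.

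Nrp1 and Vegfa were the most abundant of the 9 transcripts per length of exon. In Sham they stood at 25.1 ± 0.968 and 25.1 ± 1.25 FPKM and overlapped. Nrp2 followed at 10.3 ± 0.406 FPKM. Angptl4 (5.87 ± 0.358), Vegfc (5.32 ± 0.519) and Vegfb (4.77 ± 0.457) came next, each overlapping its neighbour in this order. Angpt2 (3.66 ± 0.327), Pgf (1.01 ± 0.234) and Angpt1 (0.156 ± 0.0249) each lay apart from the gene above. After H/R the order was Vegfa, Nrp1, Nrp2, Angptl4, Vegfc, Vegfb, Angpt2, Pgf and Angpt1, with no overlap between neighbours. In EGR1OV, Vegfa (38.7 ± 2.89 FPKM) lay well above Nrp1 (23.3 ± 0.120), Vegfc and Vegfb stood above Angptl4, and only Vegfb and Angptl4 overlapped as neighbours. The level of each gene in each library is drawn in the plot of the 9 genes.

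**Figure D1:**
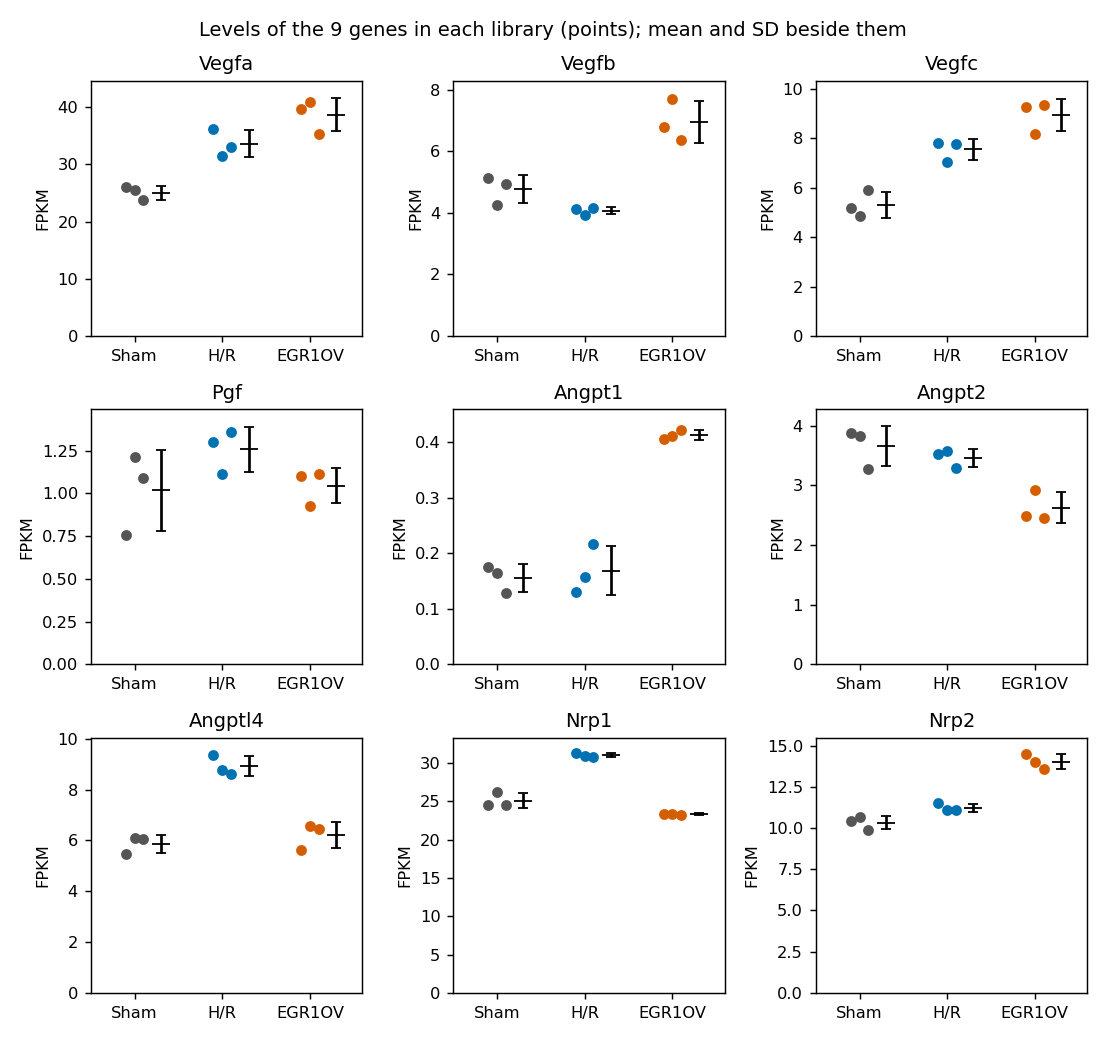
Level of each of the 9 genes in FPKM (vertical axis, from 0) in the 3 groups (horizontal axis). Points are single libraries, and the bar beside them is the mean with 1 SD (n = 3). By mean level, Vegfa and Vegfc were highest in EGR1OV and lowest in Sham, Angptl4 and Nrp1 were highest in H/R, and Vegfb, Nrp2 and Angpt1 were highest in EGR1OV.

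Sequence upstream of the start sites is shown for the genes that were called against Sham and have an entry in RefSeq (GRCm38.p6). Windows reached from 250 bases before to 50 bases after the start, and 6 of the 9 genes matched with 8 windows. Angpt1, Angpt2 and Angptl4 had no entry. Capitals mark every match, on either strand, to the letters GCGTGGGCG and GCGGGGGCG (bound by EGR1), ACGTG and GCGTG (cores of the HIF element) and GGGCGG (the GC box bound by SP1). All sequences run 5′ to 3′ on the strand of the gene, and matches may overlap. The windows lie at chr17:46032328-46032627 (minus strand) for Vegfa, chr8:54077282-54077581 (plus strand) for Vegfc, chr19:6987602-6987901 (minus strand) for Vegfb, chr1:62703067-62703366 (plus strand) for Nrp2 and chr8:128358823-128359122 (plus strand) for Nrp1.
Vegfa: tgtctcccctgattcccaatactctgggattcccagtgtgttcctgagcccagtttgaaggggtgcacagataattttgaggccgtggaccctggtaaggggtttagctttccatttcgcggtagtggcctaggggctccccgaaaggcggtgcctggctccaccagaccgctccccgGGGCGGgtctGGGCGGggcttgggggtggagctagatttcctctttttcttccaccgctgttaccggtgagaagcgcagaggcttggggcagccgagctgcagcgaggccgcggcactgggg
Vegfc: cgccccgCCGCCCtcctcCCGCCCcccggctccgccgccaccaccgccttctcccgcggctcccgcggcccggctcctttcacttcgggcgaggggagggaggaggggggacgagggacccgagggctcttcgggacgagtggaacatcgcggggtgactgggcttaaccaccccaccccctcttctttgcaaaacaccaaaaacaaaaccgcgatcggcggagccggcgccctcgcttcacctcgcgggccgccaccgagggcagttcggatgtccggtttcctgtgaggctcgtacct
Vegfb: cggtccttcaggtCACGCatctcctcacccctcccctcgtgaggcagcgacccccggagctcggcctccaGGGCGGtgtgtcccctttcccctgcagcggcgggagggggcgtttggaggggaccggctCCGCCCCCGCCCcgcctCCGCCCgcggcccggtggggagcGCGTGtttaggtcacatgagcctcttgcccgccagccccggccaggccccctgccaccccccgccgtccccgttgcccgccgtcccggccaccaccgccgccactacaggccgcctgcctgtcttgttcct
Nrp2: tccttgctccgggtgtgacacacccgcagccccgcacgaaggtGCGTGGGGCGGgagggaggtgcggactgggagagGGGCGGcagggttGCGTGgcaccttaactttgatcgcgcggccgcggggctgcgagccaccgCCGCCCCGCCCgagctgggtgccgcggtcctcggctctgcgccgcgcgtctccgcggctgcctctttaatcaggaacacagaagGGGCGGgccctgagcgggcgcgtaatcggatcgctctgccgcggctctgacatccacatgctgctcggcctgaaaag
Nrp1: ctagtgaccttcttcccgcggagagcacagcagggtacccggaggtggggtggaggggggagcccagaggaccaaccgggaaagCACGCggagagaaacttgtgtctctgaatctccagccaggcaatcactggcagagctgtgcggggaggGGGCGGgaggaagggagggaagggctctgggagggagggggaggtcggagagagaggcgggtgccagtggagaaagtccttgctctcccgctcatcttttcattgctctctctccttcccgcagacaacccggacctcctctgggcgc

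The windows of Vegfb and Nrp2 held the most matches. That of Vegfb held GCGGGGGCG once, on the opposite strand with its leftmost base at -120 from the start, where it overlaps GC boxes at -121 and -115. Across all 32851 mouse windows, 2.91% held GCGGGGGCG and 0.612% held GCGTGGGCG, which was in no window of the 9 genes. The GC box, present in 35.7% of all windows, occurred 4 times for Vegfb, 5 times for Nrp2, 2 times each for Vegfa and Vegfc, and once for Nrp1. GCGTG, in 32.4% of all windows, occurred 2 times each for Vegfb and Nrp2 and once for Nrp1. ACGTG, in 19.6%, was present in the window of an internal Vegfa start but in none of the windows printed. The counts given for GCGTG and the GC box are those of the windows printed. The internal Vegfa window also held GCGTG once and the GC box once. A window of Pgf, not printed, held GCGTG once and the GC box 2 times, and the other Pgf window held neither. A match is a run of letters and not a bound site, and a missing match says only that the letters are not in these 300 bases.

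Vegfa, the main VEGF ligand, was higher in both treated groups than in Sham. The gene (ENSMUSG00000023951, chromosome 17 from 46016993 to 46032369, minus strand) was measured as a whole, so its splice forms are not separated. Its level was 26.0, 25.5 and 23.7 FPKM (Sham), 36.2, 31.5 and 33.1 (H/R) and 39.7, 40.9 and 35.4 (EGR1OV). Every treated library lay above every Sham library, and the treated groups overlapped each other. On the log2(FPKM + 1) scale Vegfa rose by 0.60 ± 0.0654 (SE) in EGR1OV (adjusted p = 6.36e-05, limma over all genes tested) and by 0.41 ± 0.0654 after H/R (adjusted p = 0.00618). The ratio of the mean levels was 1.54 and 1.34. Against H/R, the EGR1OV level differed by 0.20 (adjusted p = 0.0318), which did not reach the 1.3-fold threshold of that comparison. The values rest on 1673 to 2861 reads per library. The 11 fibroblast and pericyte markers summed to 42.3 to 44.5 FPKM (Sham), 52.4 to 53.3 (H/R) and 48.0 to 53.8 (EGR1OV), higher in both groups where Vegfa rose. After H/R 4 of the 7 tested rose (Col1a1, Col1a2, Cspg4 and Postn), beside 1.60% of all genes tested. In EGR1OV Col1a2 rose, Thy1 fell (ratio 0.382) and the other 5 were not called. Of these 5, Cspg4, Col1a1 and Col3a1 stood at 1.36, 1.22 and 1.17 times Sham. Pdgfrb and Postn stood at 0.908 and 0.886 times Sham. Pdgfra, Rgs5, Dcn and Lum were under 0.5 FPKM. The part of these cells in the results for Vegfa, and for Vegfc, Nrp1 and Angptl4 after H/R, was not tested.

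Vegfc, the ligand best known for lymphatic vessel growth, had the same order of groups as Vegfa. The gene (ENSMUSG00000031520) lies on chromosome 8 from 54077606 to 54187096 on the plus strand. The libraries gave 5.19, 4.87 and 5.89 FPKM (Sham), 7.82, 7.06 and 7.78 (H/R) and 9.29, 8.19 and 9.34 (EGR1OV). The 3 groups did not overlap. Vegfc rose by 0.66 ± 0.0711 in EGR1OV (adjusted p = 6.39e-05) and by 0.44 ± 0.0711 after H/R (adjusted p = 0.00645), ratios of 1.68 and 1.42. EGR1OV differed from H/R by 0.22 (adjusted p = 0.0302) and missed the fold threshold. Within a library, Vegfa stood 4.76 ± 0.650 times above Vegfc (Sham), 4.45 ± 0.186 times (H/R) and 4.35 ± 0.602 times (EGR1OV), and these ratios overlapped between all groups.

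Vegfb, a ligand of Flt1 linked to fatty acid handling, rose in EGR1OV. The gene (ENSMUSG00000024962, chromosome 19 from 6982473 to 6987651, minus strand) was at 5.12, 4.25 and 4.94 FPKM (Sham), 4.12, 3.93 and 4.15 (H/R) and 6.79, 7.70 and 6.37 (EGR1OV). The EGR1OV libraries lay above all others, and the H/R libraries lay below all Sham libraries. Vegfb rose by 0.46 ± 0.0739 in EGR1OV (adjusted p = 0.000762, ratio 1.46). After H/R its change was -0.19 ± 0.0739 (95% interval -0.35 to -0.018, adjusted p = 0.139), which did not pass the test. The direct difference between EGR1OV and H/R did pass, at 0.65 ± 0.0739 (adjusted p = 7.79e-05, ratio 1.71). Vegfa exceeded Vegfb 5.29 ± 0.635 times (Sham), 8.26 ± 0.453 times (H/R) and 5.57 ± 0.274 times (EGR1OV), and the H/R libraries did not overlap the others (exact permutation p = 0.1 against each group, the smallest that 3 against 3 libraries allow). The 9 macrophage markers, led by Lyz2, summed to 142 to 146 FPKM (Sham), 118 to 125 (H/R) and 24.0 to 28.4 (EGR1OV). Of the 8 tested, 7 fell in EGR1OV and 2 after H/R, beside 910 and 370 of all 13985 genes tested. Ptprc was under 0.5 FPKM. The part of macrophages in the EGR1OV results for Vegfb and the other genes was not tested.

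**Figure D2:**
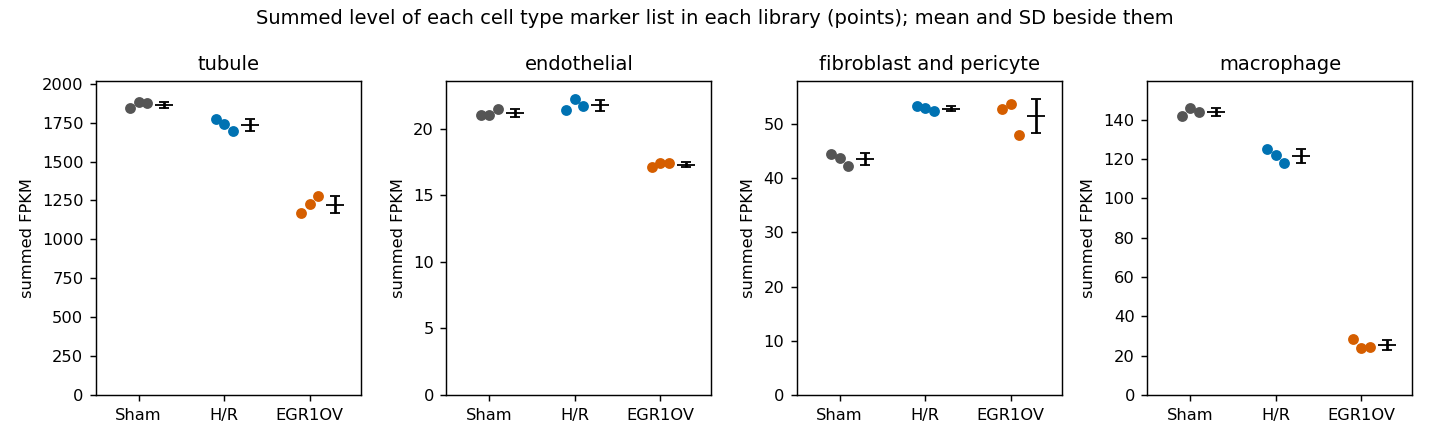
Summed FPKM of each marker list (vertical axis, from 0) in the 3 groups. Points are single libraries, and the bar beside them is the mean with 1 SD (n = 3). The macrophage sum was 24.0 to 28.4 in EGR1OV against 142 to 146 in Sham, and the fibroblast and pericyte sum was higher in both treated groups than in Sham.

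Pgf, placental growth factor, did not pass the test in any comparison. The gene (ENSMUSG00000004791, chromosome 12 from 85166635 to 85177790, minus strand) was read at 0.754, 1.21 and 1.09 FPKM (Sham), 1.3, 1.11 and 1.36 (H/R) and 1.10, 0.927 and 1.11 (EGR1OV), from 36 to 70 reads. Sham replicate 1 was the lowest of the 9 libraries. The change was 0.026 in EGR1OV (95% interval -0.19 to 0.24, adjusted p = 0.85) and 0.17 after H/R (-0.051 to 0.39, adjusted p = 0.297). Without Sham replicate 1 the EGR1OV value was -0.07. These intervals bound the change on the log2(FPKM + 1) scale, which understates that of a gene near 1 FPKM.

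Taken as a sum, Vegfa, Vegfb, Vegfc and Pgf amounted to 36.2 ± 0.800 FPKM (Sham), 46.5 ± 2.91 (H/R) and 55.6 ± 2.97 (EGR1OV), with no overlap between the groups (exact permutation p = 0.1 for each pair). Vegfa made up 69.3 ± 2.47% of that sum (Sham), 72.3 ± 0.925% (H/R) and 69.5 ± 1.55% (EGR1OV).

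The angiopoietins were low, and in EGR1OV Angpt1 lay above and Angpt2 below every Sham library. Angpt2 (ENSMUSG00000031465, chromosome 8 from 18690263 to 18741562, minus strand) was at 3.87, 3.82 and 3.28 FPKM (Sham), 3.52, 3.57 and 3.29 (H/R) and 2.48, 2.92 and 2.46 (EGR1OV). All EGR1OV libraries lay below all others, while H/R and Sham overlapped. The difference of EGR1OV from Sham was -0.36 ± 0.0702 on the log2(FPKM + 1) scale (adjusted p = 0.00233). The ratio of mean FPKM was 0.716 (1.40-fold lower), a change that this scale understates for low genes. On the scale tested, Angpt2 fell just short of the 1.3-fold threshold and was not called. It was called with a pseudocount of 0.1 (-0.47), under both other scalings, with limma voom on the recovered reads (-0.48), without Sham replicate 3 (-0.42) and without EGR1OV replicate 2 (-0.42). After H/R the difference was -0.063 (95% interval -0.22 to 0.096, adjusted p = 0.61). The macrophage sum was also lowest in EGR1OV (24.0 to 28.4 FPKM against 142 to 146 in Sham). So was the sum of the endothelial markers, at 17.1 to 17.4 FPKM against 21 to 21.5 in Sham. The part of either cell type in the Angpt2 and Nrp1 values of EGR1OV was not tested. Angpt2 lies within Mcph1 on the opposite strand but shares none of its exon bases with it, and the strand setting of the counting is not given in the sources used here.

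Angpt1 (ENSMUSG00000022309, chromosome 15 from 42424723 to 42676977, minus strand) averaged under 0.5 FPKM and was the gene that the filter on low values left out. Its level was 0.175, 0.165 and 0.128 FPKM (Sham), 0.131, 0.157 and 0.217 (H/R) and 0.405, 0.411 and 0.422 (EGR1OV). These values stand for 15, 15 and 11 reads (Sham), 11, 15 and 20 (H/R) and 35, 35 and 37 (EGR1OV). The 3 EGR1OV libraries lay close together and above the rest, at 2.64 times the Sham mean. Without the filter, the change on the log2(FPKM + 1) scale was 0.29 (adjusted p = 0.000888) and below the fold threshold; this scale understates the change of a gene this low. With limma voom on recovered reads, an alternative added after the low level of Angpt1 was seen, Angpt1 rose by 1.38 on the log2 scale (95% interval 0.81 to 1.95, adjusted p = 0.00016) in EGR1OV and differed by 0.088 after H/R (-0.57 to 0.74, adjusted p = 0.896). In that fit 23.4% of genes were called for EGR1OV against Sham. The ratio of Angpt2 to Angpt1 within a library was 22.1, 23.1 and 25.6 (Sham), 26.9, 22.8 and 15.2 (H/R) and 6.13, 7.09 and 5.83 (EGR1OV).

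Angptl4 had the largest change of the 8 tested genes after H/R. The gene (ENSMUSG00000002289, chromosome 17 from 33773750 to 33781575, minus strand) was at 5.46, 6.09 and 6.07 FPKM (Sham), 9.36, 8.76 and 8.63 (H/R) and 5.61, 6.55 and 6.47 (EGR1OV). The H/R libraries lay above all others, and EGR1OV overlapped Sham. Angptl4 rose by 0.53 ± 0.0627 after H/R (adjusted p = 0.00171, ratio 1.52). In EGR1OV the difference from Sham was 0.068 (95% interval -0.073 to 0.21, adjusted p = 0.412). EGR1OV was lower than H/R by a direct test, at -0.46 ± 0.0627 (adjusted p = 0.000241, ratio 0.697).

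Of the neuropilins, Nrp1 rose after H/R and Nrp2 in EGR1OV. Nrp1 (ENSMUSG00000025810, chromosome 8 from 128358604 to 128503363, plus strand) was at 24.5, 26.2 and 24.5 FPKM (Sham), 31.3, 31.0 and 30.8 (H/R) and 23.4, 23.4 and 23.2 (EGR1OV). The H/R libraries lay above and the EGR1OV libraries below all Sham libraries. Nrp1 rose by 0.30 ± 0.0304 after H/R (adjusted p = 0.00078, ratio 1.24). In EGR1OV its difference from Sham was -0.099 ± 0.0304 (adjusted p = 0.024), far under the fold threshold. Between the treated groups Nrp1 was lower in EGR1OV by 0.40 ± 0.0304 on the log2 scale (change -0.40, adjusted p = 5.38e-06, ratio 0.752).

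Nrp2 (ENSMUSG00000025969, chromosome 1 from 62703285 to 62818695, plus strand) was at 10.4, 10.7 and 9.91 FPKM (Sham), 11.5, 11.1 and 11.1 (H/R) and 14.5, 14.0 and 13.6 (EGR1OV). The 3 groups did not overlap. Nrp2 rose by 0.41 ± 0.0386 in EGR1OV (adjusted p = 2.49e-05, ratio 1.36). Under quantile normalization the same change was 0.30 and under the fold threshold. After H/R the difference was 0.11 ± 0.0386 (adjusted p = 0.095) and did not pass, and EGR1OV differed from H/R by 0.30 (adjusted p = 0.000182), short of the fold threshold. Nrp2 shares no exon bases with the non-coding genes Gm37121 and Gm29083 annotated inside it.

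The balance of the neuropilins within a library therefore had 3 separate ranges. Nrp1 over Nrp2 was 2.36, 2.44 and 2.47 (Sham), 2.72, 2.78 and 2.78 (H/R) and 1.61, 1.67 and 1.70 (EGR1OV). No group overlapped another (exact permutation p = 0.1 for each pair). A ratio taken inside a library does not change with a single scaling factor per library. Quantile normalization can change it, and the ratios were not recomputed under that setting. The within-library ratios are shown together in the plot of ratios between genes.

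**Figure D3:**
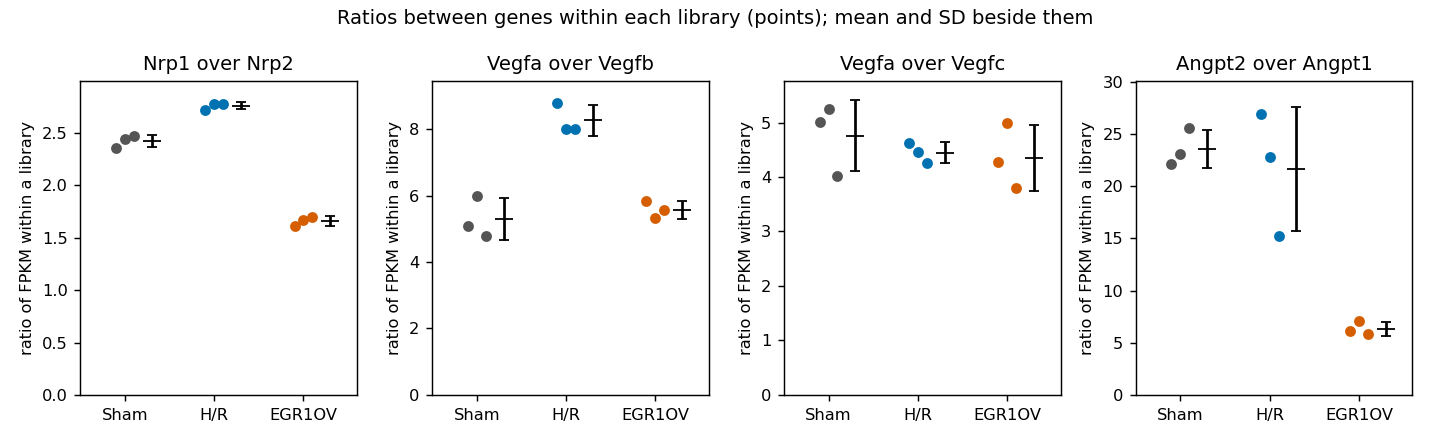
Ratio of FPKM between pairs of genes within each library (vertical axis, from 0) in the 3 groups. Points are single libraries, and the bar beside them is the mean with 1 SD (n = 3). Nrp1 over Nrp2 fell into 3 separate ranges, Vegfa over Vegfb was highest in H/R, Vegfa over Vegfc overlapped between groups, and Angpt2 over Angpt1 was 6.35 ± 0.660 in EGR1OV against 23.6 ± 1.82 in Sham.

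Of the 9 genes, 8 passed the filter, an average of 0.5 FPKM or more. For EGR1OV against Sham, Vegfa, Vegfb, Vegfc and Nrp2 were called higher (adjusted p under 0.05 and at least 1.3-fold), in a comparison where 16.4% of the 13985 genes tested were called, 9.87% being called higher. For H/R against Sham, Vegfa, Vegfc, Angptl4 and Nrp1 were called higher (at least 1.2-fold), where 4.25% of genes tested were called, 1.60% being called higher. Both comparisons share the Sham libraries. For EGR1OV against H/R, Vegfb was called higher and Nrp1 and Angptl4 lower, where 18.9% of genes tested were called, 11.9% being higher and 6.94% lower. The split of all calls depended on scaling, since the share that was higher went from 60.3% to 45.9% (EGR1OV against Sham) and from 63.2% to 42.5% (EGR1OV against H/R) under quantile normalization and from 37.7% to 58.2% (H/R against Sham) under median-ratio scaling. Groups that do not overlap were common, at 55.7% of all genes (EGR1OV against Sham), 33.6% (H/R against Sham) and 58.6% (EGR1OV against H/R), so a lack of overlap alone sets no gene apart. The median change of the 8 was 0.24 for EGR1OV and 0.23 for H/R, each against Sham, beside 0.017 and -0.03 over all genes tested. None of the calls against Sham reached 2-fold, which 3.46% of genes did for EGR1OV and 0.0787% after H/R.

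**Figure D4:**
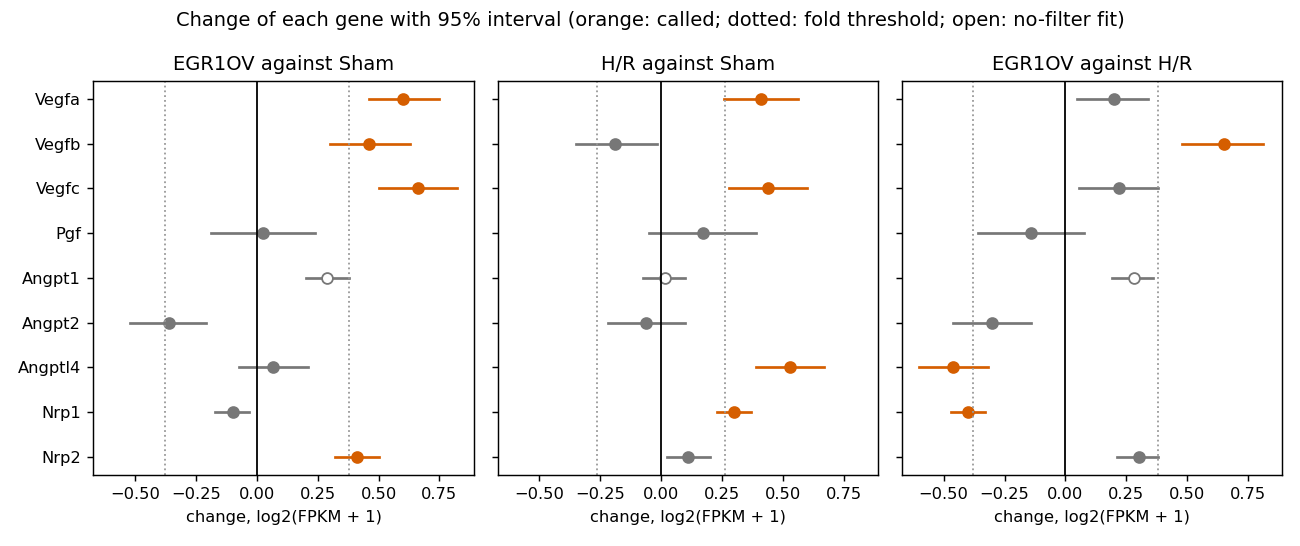
Change of each gene on the log2(FPKM + 1) scale (horizontal axis) with its 95% interval from limma, for the 3 comparisons. Orange marks genes that were called, dotted lines mark the fold threshold (1.3, 1.2 and 1.3-fold), and the open point of Angpt1 comes from the fit without the filter. Vegfa and Vegfc were called in both comparisons with Sham, and Vegfb, Angptl4 and Nrp1 between the treated groups.

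Of the receptors for these ligands, Flt4 was the most abundant. Flt4, the receptor of Vegfc, was at 9.94, 9.48 and 9.76 FPKM (Sham), 8.92, 10.2 and 9.94 (H/R) and 25.0, 26.4 and 26.3 (EGR1OV). It rose by 1.33 ± 0.0481 in EGR1OV (adjusted p = 2.8e-08, ratio 2.66) and differed by -0.0053 after H/R (adjusted p = 0.96). The 12 endothelial markers, led by Eng, summed to 21 to 21.5 FPKM (Sham), 21.4 to 22.2 (H/R) and 17.1 to 17.4 (EGR1OV). The part of endothelial cells in the EGR1OV values of Flt4 and of the 9 genes was not tested. Of the 9 endothelial markers tested, Pecam1 fell in EGR1OV (-0.46, adjusted p = 0.000442), beside 910 of all 13985 genes tested. The other 8 were not called against Sham, and Tek, Tie1 and Cldn5 were under 0.5 FPKM. Flt1 averaged 0.915, 1.17 and 0.760 FPKM in Sham, H/R and EGR1OV, and Kdr 0.639, 0.734 and 0.436. Neither was called in any comparison. For EGR1OV against H/R, both passed the p threshold but not 1.3-fold on the log2(FPKM + 1) scale. There Flt1 differed by -0.30 (adjusted p = 0.00559, ratio of means 0.648) and Kdr by -0.27 (adjusted p = 0.0141, ratio 0.594). This scale understates the change of genes this low. The angiopoietin receptor Tek averaged 0.248, 0.171 and 0.145 FPKM and its relative Tie1 0.479, 0.370 and 0.229, both under the filter. Without the filter, the EGR1OV difference from Sham was -0.26 for Tie1 (adjusted p = 0.0163) and -0.12 for Tek (adjusted p = 0.185), neither called. In the voom fit added for Angpt1 it was -1.02 for Tie1 (adjusted p = 0.00212, called) and -0.73 for Tek (adjusted p = 0.0888, not called).

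Among 8 further ligands of these families, 4 passed the filter. Angpt4, another Tek ligand, rose in EGR1OV from 4.50 ± 0.658 to 7.52 ± 0.137 FPKM (0.64, adjusted p = 0.000114), and Angptl2 from 16.7 ± 0.505 to 23.7 ± 0.124 (0.49, adjusted p = 1.38e-06). After H/R they stood at 4.69 ± 0.204 and 14.7 ± 0.295 FPKM and were not called. Vegfd, the closest relative of Vegfc, averaged 0.0248 FPKM in Sham and 0.0830 in EGR1OV and was not tested.

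The other partners of the neuropilins are the class 3 semaphorins and the plexins through which they signal, of which 10 of 12 passed the filter. In EGR1OV, Sema3d fell from 1.13 ± 0.0764 to 0.264 ± 0.0361 FPKM (-0.75, adjusted p = 1.52e-05) and Sema3a from 1.22 ± 0.0873 to 0.487 ± 0.0948 (-0.58, adjusted p = 0.00034). The plexin Plxnd1 rose from 5.66 ± 0.0319 to 10.8 ± 1.25 FPKM (0.82, adjusted p = 1.22e-05). The other 7 were not called, among them Plxna1, the most abundant plexin of the list (44.4 FPKM in Sham and 40.4 in EGR1OV). After H/R, Sema3d was at 1.49 ± 0.0685, Sema3a at 1.04 ± 0.139 and Plxnd1 at 5.95 ± 0.305 FPKM, not called.

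**Figure D5:**
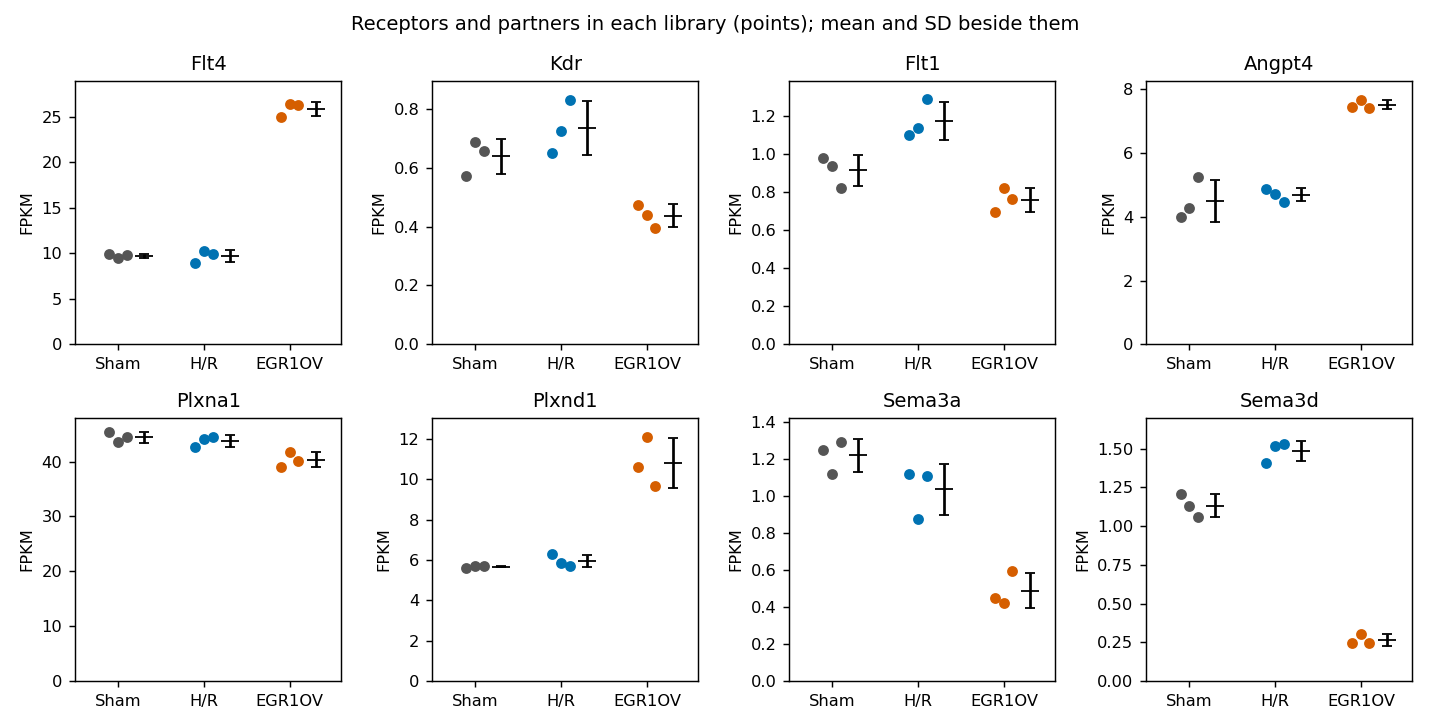
Level in FPKM (vertical axis, from 0) of receptors, of Angpt4 and of neuropilin partners in the 3 groups. Points are single libraries, and the bar beside them is the mean with 1 SD (n = 3). Flt4, Angpt4 and Plxnd1 were higher and Sema3a and Sema3d lower in EGR1OV than in Sham, while Kdr and Flt1 stayed near 1 FPKM or below.

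Of 7 tested genes for proteins that process or bind VEGF ligands, 1 was called higher and 1 lower in EGR1OV against Sham. In that comparison 16.4% of all genes tested were called. None of the 7 was called after H/R, beside 4.25% of all genes tested. Pcsk5, a proprotein convertase that can cleave Vegfc, rose in EGR1OV from 2.25 ± 0.147 to 3.32 ± 0.183 FPKM (0.41, adjusted p = 0.000237). Hspg2, the heparan sulfate proteoglycan perlecan, fell from 114 ± 4.59 to 76.5 ± 4.72 FPKM (-0.58, adjusted p = 6.74e-06). Ccbe1, a cofactor of Vegfc maturation, was abundant at 44.6, 49.7 and 45.5 FPKM in Sham, H/R and EGR1OV and was not called.

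Among 10 tested genes of other angiogenic factors, those called after H/R were Fgf2, which rose from 1.89 ± 0.197 to 3.11 ± 0.283 FPKM (0.51, adjusted p = 0.0045), and Apln, the apelin gene, from 4.97 ± 0.252 to 6.75 ± 0.623 (0.37, adjusted p = 0.0396). In EGR1OV the platelet-derived growth factors Pdgfc and Pdgfd fell to 18.0 ± 0.210 and 16.3 ± 0.594 FPKM from 27.8 ± 0.701 and 26.7 ± 0.305 (adjusted p = 1.63e-07 and 3.43e-07). The chemokine gene Cxcl12 also fell in EGR1OV (-0.55, adjusted p = 4.75e-05), and the vasodilator gene Adm, adrenomedullin, rose (0.55, adjusted p = 0.000309).

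Of 7 tested angiogenesis inhibitors, Thbs1, thrombospondin 1, was at 1282 ± 31.3 FPKM in Sham, rose to 1549 ± 52.5 after H/R (0.27, adjusted p = 0.00167) and fell to 794 ± 16.8 in EGR1OV (-0.69, adjusted p = 1.77e-07). Timp3, which blocks Kdr, fell in EGR1OV from 35.9 ± 0.498 to 24.2 ± 0.988 FPKM (adjusted p = 3.54e-06). Serpinf1, pigment epithelium-derived factor, rose from 5.73 ± 0.479 to 9.99 ± 0.426 FPKM (adjusted p = 5.93e-06). Cxcl10, an interferon-induced chemokine that restrains endothelial growth, rose from 6.13 ± 0.424 to 267 ± 1.78 FPKM in EGR1OV (adjusted p = 5.81e-12) and to 9.18 ± 0.517 after H/R (adjusted p = 0.000515).

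Vegfa and Angptl4 are textbook HIF targets, so 18 further hypoxia response targets were read beside them. After H/R, 9 of the 17 tested were called higher, beside 1.60% of all genes tested, with a median change of 0.29 over the 17. The other 8 were not called, among them Adm (-0.049, adjusted p = 0.729). The largest changes were those of the lactate transporter Slc16a3 (1.18, from 4.90 to 12.4 FPKM), the glycolytic enzyme Pfkl (0.99), Bnip3 (0.95), which acts in mitophagy, and the kinase Pdk1 (0.93). Angptl4 at 0.53 and Vegfa at 0.41 lay below these. In EGR1OV 4 of the 17 were called higher, Adm (0.55), Pfkfb3 (0.51), Pfkl (0.40) and Bnip3 (0.38), beside 9.87% of all genes, with a median of 0.15, whereas Vegfa changed by 0.60 and Angptl4 by 0.068. Between the treated groups, 7 of the 17 were lower and 3 higher in EGR1OV than in H/R, beside 6.94% and 11.9% of all genes.

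Of 9 tested PPAR receptors and targets, Cpt1a, the gate of mitochondrial fatty acid oxidation, fell after H/R (-0.35, adjusted p = 0.00114) and Acot1, an acyl-CoA thioesterase, rose in EGR1OV (0.56, adjusted p = 5.25e-05). Plin2, a lipid droplet gene that shares PPAR control with Angptl4, was at 174, 188 and 184 FPKM and was not called. Between the treated groups, 4 of the 9 were higher and 1 lower in EGR1OV than in H/R, beside 11.9% and 6.94% of all genes. The lower gene was Pdk4 (-0.63, adjusted p = 0.00027), at 3.54, 4.55 and 2.59 FPKM in Sham, H/R and EGR1OV. Lpl, which encodes the lipase that Angptl4 inhibits, averaged 0.491, 0.749 and 0.314 FPKM in Sham, H/R and EGR1OV and was not called against Sham. Lpl was called lower in EGR1OV than in H/R (-0.41, adjusted p = 0.00319, ratio 0.420). Lipg, endothelial lipase, another enzyme Angptl4 can inhibit, rose in EGR1OV from 3.37 ± 0.143 to 6.86 ± 0.490 FPKM (0.85, adjusted p = 1.37e-06). Lipg was also called higher in EGR1OV than in H/R (0.68, adjusted p = 6.17e-06).

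The genes whose levels followed each called member most closely were sought among 7588 genes averaging 5 FPKM or more, by Pearson's r of log2(FPKM + 1) over the 9 libraries. The libraries fall into 3 groups, so these values mostly describe differences between the groups. Vegfa was closest to Col1a2 (r = 0.983), a collagen gene of the fibroblast list, and Eva1a (0.982). Vegfb was closest to Nr1h2 (0.99) and Pigt (0.985), and Vegfc to B4galt7 (0.98) and Brix1 (0.973). Angptl4 was closest to Tbc1d1 (0.979) and to Ldha (0.969), a glycolytic gene of the hypoxia list that was at 145, 224 and 154 FPKM in Sham, H/R and EGR1OV. Nrp1 was closest to Itsn2 (0.991) and the Notch ligand gene Jag1 (0.987), and Nrp2 to Adamts6 (0.994) and Smap2 (0.992).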

How the data were processed

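RNA sequencing (Illumina NovaSeq) was done on 9 libraries, grouped by their titles. FPKM values, 1 column per library with replicates not pooled, were deposited by the authors. The submitters' processing notes list HISAT2 2.1.0, Bowtie2 2.2.3, TopHat2 and mm9, while gene positions in the table equal GENCODE M21 (GRCm38) for 94.6% of genes, so positions are printed as in the table. The counter, its strand setting and how it treats shared reads are not given in the sources used here.

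FPKM are not counts. Low values were whole multiples of a step, which gave the depth of each library, and 98.7% of 154344 values of 1 to 1000 reads came out whole within 0.02 reads with exon lengths from GENCODE M21. The floor is 3 reads, which covers counting error only. All replicate pairs differed by more than sampling noise (chi-square per degree of freedom from 2.03 to 3.83), and none was merged.

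Values were tested as log2(FPKM + 1) with limma 3.58.1 in R 4.3.3 (trend, two-sided, Benjamini-Hochberg over all 13985 genes averaging 0.5 FPKM or more, all 9 libraries in one fit). This scale understates the change of low genes. Calls needed an adjusted p under 0.05 and 1.3-fold (EGR1OV against Sham or H/R) or 1.2-fold (H/R against Sham), and adjusted p values are from this fit unless another is named. Exact two-sided permutation tests used mean FPKM or ratios. The code was tested on simulated data.

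The 9 genes, the gene lists and the tests were chosen with earlier results of these data known. From each list, the up to 4 called genes with the largest change in each comparison could be named, as could all receptors. Ccbe1, Plxna1, Plin2 and Vegfd were named after their values were seen. Aqp2 is not analysed here. Results for 1 further marker list are not reported here. Alternatives were a pseudocount of 0.1, no filter, an average of 5 FPKM or more, quantile normalization, median-ratio scaling, a replicate block, no trend, only the groups compared, no fold threshold, 2-fold, voom on recovered reads (also, added after seeing the data, on all genes with a mean of at least 10 reads) and each library left out. Tables and figures were made with Python 3.11.15, pandas 2.3.3, scipy 1.17.1 and matplotlib 3.10.9.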

Additional observations from a re-analysis of the deposited data

Results flagged for a closer look

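For 3 of the 8 genes tested the response to the Egr1 plasmid and the response to H/R differed by a direct limma test between the treated groups at an adjusted p under 0.05 and 1.3-fold, a rule that called 18.9% of all genes tested. Without the fold threshold, Nrp2 (0.30), Angpt2 (-0.30), Vegfc (0.22) and Vegfa (0.20) also passed, 7 in all, where 7135 of the 13985 genes tested passed. Vegfb was higher in EGR1OV than in H/R by 0.65 on the log2(FPKM + 1) scale (adjusted p = 7.79e-05), with every EGR1OV library above every H/R library. Nrp1 differed by -0.40 (adjusted p = 5.38e-06) and Angptl4 by -0.46 (adjusted p = 0.000241), with every EGR1OV library below every H/R library. All 3 differences kept their direction and an adjusted p under 0.05 under each of the 19 alternatives that change the fit, over a range of 0.52 to 0.77 for Vegfb, -0.50 to -0.39 for Nrp1 and -0.58 to -0.40 for Angptl4, but none reached 2-fold.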

How the results depend on the processing

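Counts of called genes among the 9 were 4 (EGR1OV against Sham), 4 (H/R against Sham) and 3 (EGR1OV against H/R), and with each library left out they ran from 4 to 5, 4 to 4 and 3 to 3. At 2-fold each count was 0 by limma, although without any fold threshold 7 genes passed for EGR1OV against H/R. With voom on genes of at least 10 reads that comparison gave 5, Angpt1 and Angpt2 being added. Over 21 alternatives and 498 values, 467 kept direction and call, 12 lost the call, 17 gained it and 2 reversed. The reversals were Pgf for EGR1OV against Sham without Sham replicate 1 (-0.07, with a range from -0.07 to 0.095 over the libraries left out) and Angptl4 for EGR1OV against Sham under quantile normalization (-0.012), neither called. Over all genes, calls went from 2291, 594 and 2641 to 6417, 1635 and 7135 with no fold threshold, to 484, 11 and 489 at 2-fold, and to 1315, 372 and 1520 at an average of 5 FPKM or more, with voom to 995 for H/R against Sham, and with voom on genes of at least 10 reads to 3480, 1043 and 4024. The share of called genes that were higher moved with scaling, from 60.3% to 45.9% (EGR1OV against Sham, quantile), from 37.7% to 58.2% (H/R against Sham, median-ratio) and 56.5% (quantile), and from 63.2% to 51% and 42.5% (EGR1OV against H/R), and the cause was not tested.

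Equal replicate numbers do not mark shared material in the labels, and same-numbered libraries deviated together weakly (r from -0.195 to 0.263), so the numbers were not taken as pairs. With a replicate block the counts were 4, 4 and 3, and 2309, 516 and 2654 over all genes. Depth limits Angpt1 (11 to 37 reads) and Pgf (36 to 70 reads) most.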
